A study of Mus musculus with 53 samples.

Results

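The annexins are the 10 genes Anxa1, Anxa2, Anxa3, Anxa4, Anxa5, Anxa6, Anxa8, Anxa9, Anxa11 and Anxa13, taken as the rows of the raw count matrix that carry these symbols, out of 55421 genes in the matrix. The matrix holds 12 annexin genes in all, and the other two are not described here. RNA from mouse intestine was sequenced in 53 libraries that fall into 11 groups, and each mutant group was compared with wild-type mice of its own tissue and time point.

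Annexins are proteins that bind acidic phospholipid membranes when calcium rises, and they act in membrane repair, in vesicle traffic and at the cell surface. Anxa1 is an anti-inflammatory mediator that signals through formyl peptide receptors, Anxa2 pairs with the S100 protein S100a10 and binds tissue plasminogen activator at the surface, and Anxa5 binds exposed phosphatidylserine. In the gut Anxa13 is an annexin of epithelial cells of the villus, Anxa4 is an abundant epithelial annexin, and Anxa1 and Anxa8 are known among genes of the foetal or regenerating epithelium.

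All mice carried VilCreER, a tamoxifen-inducible Cre recombinase that is active only in the intestinal epithelium, whereas RNA came from whole tissue. At day 30 after induction the proximal colon was sampled from VilCreER WT mice (n = 4), VilCreER Alk5 fl/fl mice (A, n = 4), A mice given 0.4 g/L sulindac in the drinking water for the first 14 days (n = 4), VilCreER Braf V600E/+ Alk5 fl/fl mice (BA, n = 5) and BA mice given an antibiotic mixture (n = 5). Alk5 is the type I receptor of TGF-beta, encoded by Tgfbr1, and the mixture held 1 g/L ampicillin, 1 g/L neomycin, 500 mg/L vancomycin and 1 g/L metronidazole. The other groups were primary BA tumours of the proximal colon (n = 4) with WT proximal colon (n = 3), small intestine at day 4 from 10 Apc fl/fl and 6 WT mice, and small intestinal tumours of Apc fl/+ mice (n = 5) with WT small intestine (n = 3). The last pair was on an inbred C57BL6/J background (N9/99.8%) and every other group on a mixed C57BL/6J background (N6); the labels give no age for single mice.

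Libraries held between 516985 and 32824795 reads assigned to genes, with a median of 18356939. Tumour 2 of the Apc fl/+ group went against its small intestinal label, with the small intestinal factor Gata4 at 0.464 normalised CPM (counts scaled to library size) against 69.5 to 85.1 in the other 4 tumours, and the colonic carbonic anhydrase Car1 at 167 CPM against at most 0.580. Results for the Apc fl/+ tumours are given with all 5 tumours and, where stated, without that one. BA antibiotic replicate 3 stood apart by a summed level of 6 fibroblast markers of 7391 CPM against 1077 to 1540 in the other 4, and Apc fl/fl replicate 5 by 2369 CPM against 369 to 1148 in the other 9. Apc fl/fl replicate 1 held the fewest reads. The deleted or mutated exons of Apc, Tgfbr1 and Braf cannot be checked in counts over whole genes. The predicted gene Gm13394 was over 10 CPM in every A and BA library at day 30 and in 0 of 4 WT libraries, so whatever sets it apart cannot be told apart from genotype in the comparisons with WT at day 30, whereas BA against A and antibiotics against none are comparisons within one state.

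The genes lie apart on the mouse genome (GRCm38), and none of them overlaps another. Anxa1 (ENSMUSG00000024659) lies at chr19:20373428-20390944 on the minus strand, Anxa2 (ENSMUSG00000032231) at chr9:69453620-69491795 on the plus strand, Anxa3 (ENSMUSG00000029484) at chr5:96793339-96845966 on the plus strand, and Anxa4 (ENSMUSG00000029994) at chr6:86736840-86793584 on the minus strand. Anxa5 (ENSMUSG00000027712) lies at chr3:36448923-36475894 on the minus strand, Anxa6 (ENSMUSG00000018340) at chr11:54979108-55033445 on the minus strand, and Anxa8 (ENSMUSG00000021950) at chr14:34085981-34100571 on the plus strand. Anxa9 (ENSMUSG00000015702) lies at chr3:95296096-95307176 on the minus strand, Anxa11 (ENSMUSG00000021866) at chr14:25842156-25886804 on the plus strand, and Anxa13 (ENSMUSG00000055114) at chr15:58341471-58389244 on the minus strand. Anxa11 is the least certain of these in short reads, since 17.0% of its 36-base words occur elsewhere in annotated transcripts, most of them in the predicted gene Gm2260. Exons of Anxa2, Anxa4, Anxa9 and Anxa11 overlap those of a gene on the other strand by 71 to 113 bases, and whether counting used strand is not given in the sources used here.

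Promoter windows, from 250 bases before to 50 after the start, were found in RefSeq (GRCm38.p6) for 7 of the 10 genes, all but Anxa3, Anxa6 and Anxa13. They were searched on both strands for the AP-1 motif TGANTCA, which 7.81% of 32851 promoters hold, and for the TEAD motif CATTCC or its complement GGAATG, which 14.7% hold. The Anxa1 window held 1 TEAD match, the Anxa2 window 1 AP-1 match, and the windows of Anxa4, Anxa5, Anxa8, Anxa9 and Anxa11 held neither. The 3 stretches below show the windows with a match and that of Anxa8, the annexin that rose under antibiotics by the largest fold, with motif letters in capitals. The Anxa1 stretch is chr19:20390890-20390919 on the minus strand, the Anxa2 stretch chr9:69453433-69453619 and the Anxa8 stretch chr14:34085729-34085978, both on the plus strand. The Anxa1 stretch lies before the RefSeq start but inside exons of Anxa1 in the GENCODE annotation, which begins the gene further upstream. A match is a string of letters and no evidence of binding.
Anxa1: actgcactgaacCATTCCtgtgaggaataa
Anxa2: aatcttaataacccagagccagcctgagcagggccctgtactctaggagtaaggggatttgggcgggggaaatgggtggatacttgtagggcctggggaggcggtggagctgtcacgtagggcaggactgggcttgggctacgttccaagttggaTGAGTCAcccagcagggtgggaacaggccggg
Anxa8: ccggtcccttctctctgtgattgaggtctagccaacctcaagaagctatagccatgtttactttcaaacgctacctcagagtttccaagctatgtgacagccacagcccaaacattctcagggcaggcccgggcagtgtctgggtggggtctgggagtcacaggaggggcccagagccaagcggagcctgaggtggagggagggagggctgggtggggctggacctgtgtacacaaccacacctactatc

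In normal tissue the family had a different make-up in colon and in small intestine. Per kilobase of exon, Anxa2 led in WT proximal colon at day 30 with 45.7% of the summed family level. Anxa8 was last there by mean with 0.321%, and its range overlapped that of Anxa9. In the other WT colon group Anxa9 was last. In WT small intestine at day 4, Anxa13, Anxa2 and Anxa4 held 32.3%, 31.5% and 24.3% of the summed level, and their ranges over mice overlapped. The order was Anxa4 with 30.38%, Anxa13 with 29.8% and Anxa2 with 28.2% in the other WT small intestine group, again with overlapping ranges. Anxa13, at 228 to 388 CPM in WT small intestine at day 4, reached no more than 21.2 CPM in WT colon. Tissues were sampled in separate experiments, so these levels are set side by side without a test. Anxa9 was low throughout, with 0 to 201 reads per library, and so was Anxa8 in WT mice, with 27 to 63 reads in WT colon at day 30.

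**Figure D1:**
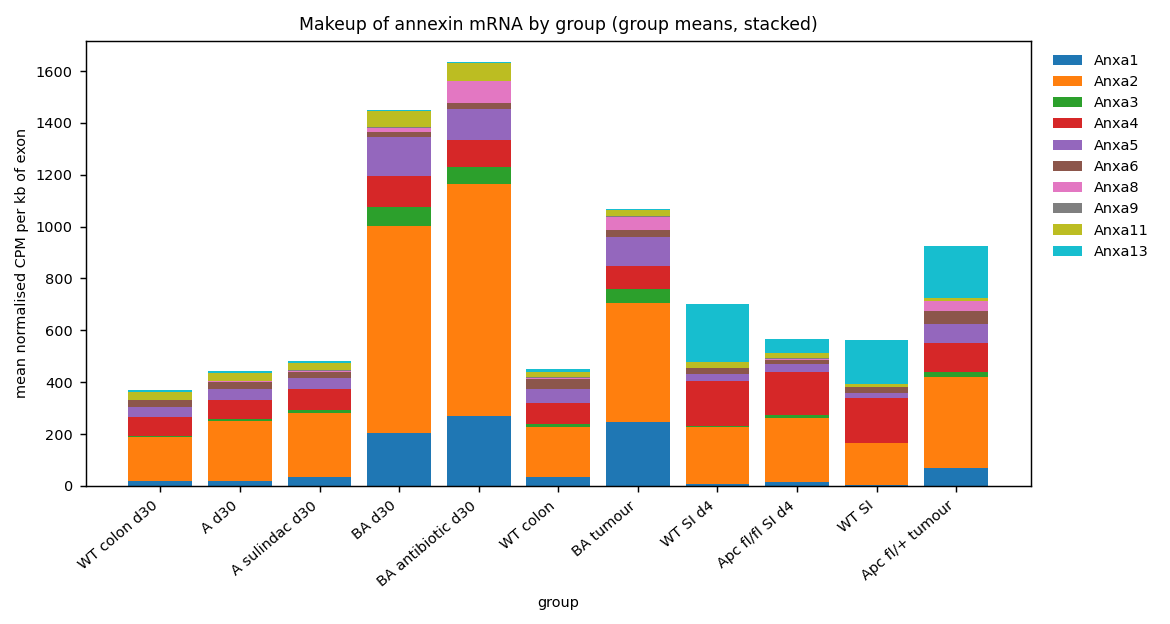
Stacked bars of the mean level of each annexin per kilobase of exon (normalised CPM per kb) in the 11 groups. Anxa2 holds 55.2% of the summed level in BA colon at day 30 against 45.7% in WT colon, and Anxa13 is a large share only in the small intestinal groups.

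**Figure D2:**
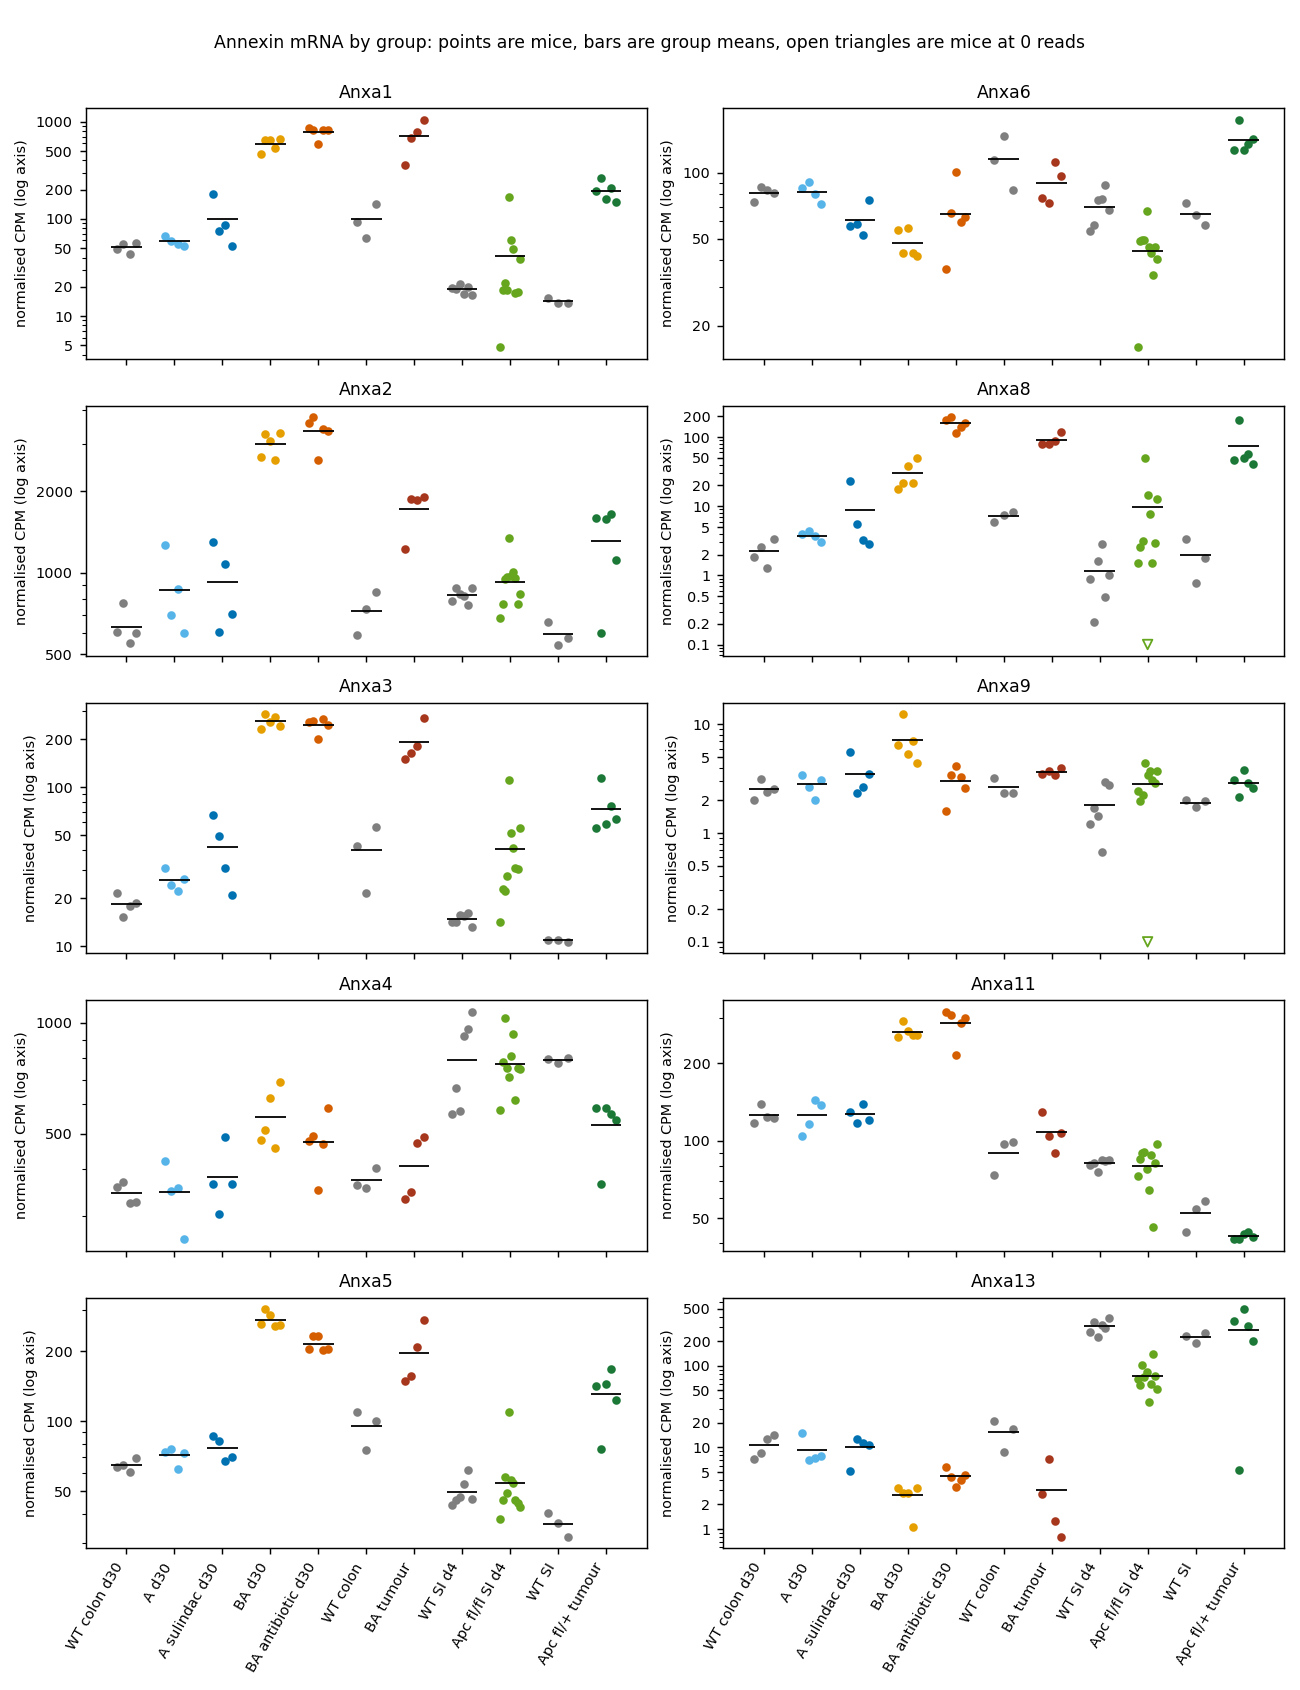
Level of each annexin in every mouse (normalised CPM, log axis), 1 panel per gene, with points for mice, bars for group means and open triangles for mice with 0 reads. Anxa1, Anxa3 and Anxa8 are higher in both tumour groups than in their WT tissue in every mouse.

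At day 30, BA colon differed from WT colon in every annexin: 8 genes rose and 2 fell, and in all 10 the groups did not overlap. Over all genes tested 55.1% were called, 25.8% higher and 29.3% lower, and 45.4% did not overlap, with a median log2 fold change of −0.03 against 1.78 over the annexins. Anxa1, Anxa3, Anxa5, Anxa6 and Anxa8 are on the foetal gene list shown for BA tumours in the study, so their directions in BA mice are not independent evidence. Anxa2 was at 605, 777, 550 and 599 CPM in WT mice and at 2675, 3269, 3079, 2611 and 3288 CPM in BA mice, and no BA mouse came near the WT range. Its log2 fold change was 2.22 ± 0.12 (SE, adjusted p = 1.2e-07, edgeR's quasi-likelihood test), and it led the family per kilobase in BA mice. Anxa3, an annexin of phagocytes and of some epithelia, was at 21.5, 15.3, 18.0 and 18.7 CPM in WT and at 233, 286, 257, 276 and 240 CPM in BA mice. The BA mice were again well above the WT mice (log2 fold change 3.80 ± 0.11, adjusted p = 3.74e-09).

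Anxa1 was at 48.9, 54.7, 43.8 and 56.6 CPM in WT and at 469 to 661 CPM in BA mice at day 30 (log2 fold change 3.52 ± 0.13, adjusted p = 1.5e-08). Anxa8, last of the family by mean per kilobase in WT colon at day 30, was at 1.82, 2.57, 1.27 and 3.32 CPM in WT and at 17.7, 21.4, 38.4, 22 and 49.5 CPM in BA mice. BA mice spread over a wider relative range in Anxa8 than in Anxa3, and none of them overlapped WT (log2 fold change 3.72 ± 0.37, adjusted p = 1.09e-05). Anxa5 was at 63.8, 65.1, 60.7 and 69.3 CPM in WT and at 263, 304, 287, 257 and 259 CPM in BA mice, both tight groups (log2 fold change 2.07 ± 0.08, adjusted p = 1.5e-08). Anxa11, an annexin that tethers RNA granules to lysosomes, was at 117, 139, 124 and 122 CPM in WT and at 253, 292, 266, 257 and 257 CPM in BA mice. Its log2 fold change was 1.07 ± 0.07 (adjusted p = 6.94e-07). Anxa4 (log2 fold change 0.67, adjusted p = 0.000626) and the low gene Anxa9 (1.5, adjusted p = 0.00109) rose as well.

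Anxa6 and Anxa13 fell in BA colon at day 30. Anxa6, an annexin of endosomes and of stromal and muscle cells, was at 73.6, 86.4, 83.6 and 80.8 CPM in WT and at 54.5, 42.9, 55.9, 42.9 and 41.8 CPM in BA mice (log2 fold change −0.78 ± 0.11, adjusted p = 0.000102). Anxa13 was at 7.12, 8.59, 12.5 and 14.2 CPM in WT and at 3.17, 2.77, 2.73, 1.05 and 3.21 CPM in BA mice (log2 fold change −2.05 ± 0.29, adjusted p = 0.000147). Every BA mouse was below every WT mouse in both genes. Markers of cell types moved as well: 10 of 10 epithelial markers were higher in BA mice, with summed levels of 26863 to 31133 CPM against 13548 to 16148, and 4 of 6 small intestinal enterocyte markers tested were higher. Lower were 6 of 8 smooth muscle, 5 of 6 fibroblast, 4 of 5 colon, 3 of 4 T cell and 2 of 4 endothelial markers. So were 1 of 8 macrophage markers and 1 of the 6 small intestinal enterocyte markers tested. The part of these in the annexin values was not tested, and in whole tissue fewer cells of a type and less RNA per cell cannot be told apart. All 10 calls were made again in every fit that left out 1 of the 9 mice.

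**Figure D3:**
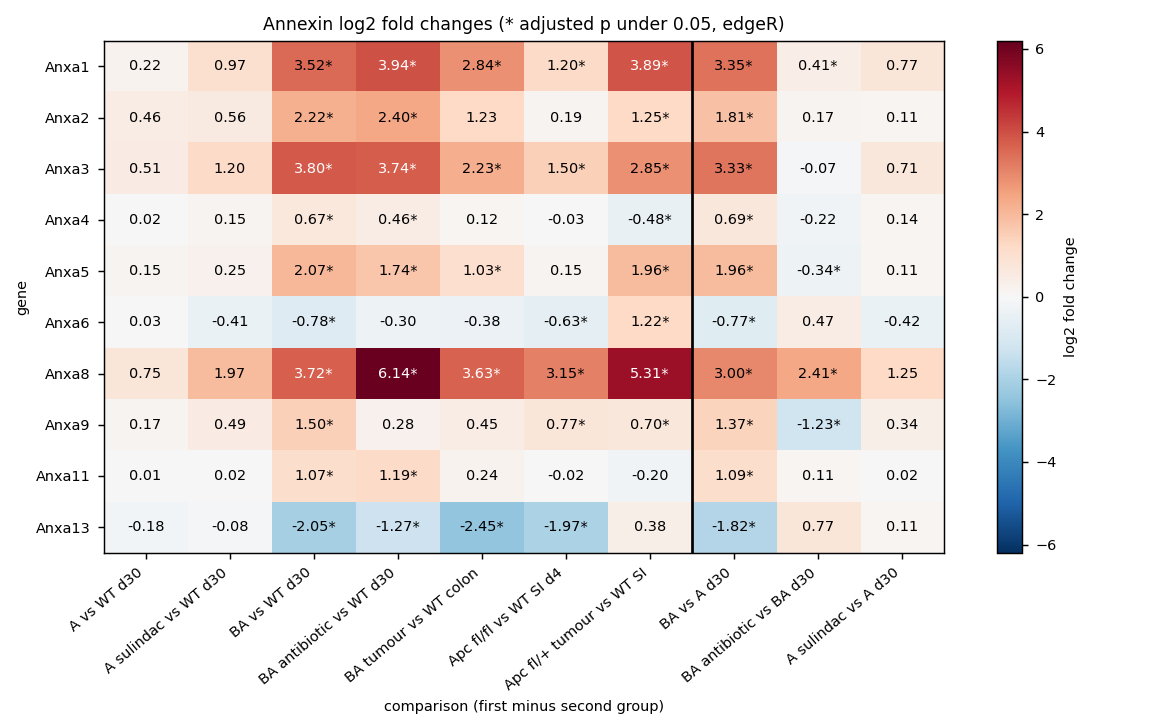
Log2 fold change of each annexin in each comparison, as a coloured and numbered cell (red higher, blue lower, in the first group named), with an asterisk where edgeR's quasi-likelihood test called the gene at an adjusted p below 0.05. Comparisons with WT stand left of the black line. BA against WT and BA against A at day 30 each call 8 genes higher and 2 lower, while A against WT calls 0.

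The oncogenic Braf allele separated the groups when Alk5 loss was shared. BA colon against A colon at day 30 again gave 8 annexins higher and 2 lower, none with overlap, where 45.3% of all genes tested were called (21.7% higher, 23.6% lower) and 36.1% did not overlap. Anxa1 was at 67.4, 59.7, 55.3 and 53.2 CPM in A mice and at 469, 649, 643, 537 and 661 CPM in BA mice (log2 fold change 3.35, adjusted p = 6.02e-08). The log2 fold change was 3.33 for Anxa3 (adjusted p = 2.55e-08), 3.00 for Anxa8 (adjusted p = 3.3e-05) and 1.81 for Anxa2 (adjusted p = 4.41e-05). Smaller rises were those of Anxa5 by 1.96 (adjusted p = 3.34e-07), Anxa9 by 1.37 (adjusted p = 0.00322), Anxa11 by 1.09 (adjusted p = 4.36e-05) and Anxa4 by 0.69 (adjusted p = 0.00475) on the log2 scale. Anxa6 fell by 0.77 and Anxa13 by 1.82 on the log2 scale. This comparison and the one with WT use the same BA mice, so their values are not independent. Epithelial markers were higher in 10 of 10 here as well, from summed levels of 13303 to 22864 CPM in A mice. Lower were 3 of 4 T cell, 3 of 6 fibroblast, 3 of 8 smooth muscle and 2 of 8 macrophage markers. So were 1 of 4 endothelial, 1 of 4 B cell and 1 of 5 colon markers. Of 6 small intestinal enterocyte markers tested, 2 were higher and 2 lower. The part of these in the annexin values was not tested.

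Alk5 loss alone gave few called genes and no called annexin. In A against WT colon at day 30 edgeR's quasi-likelihood test called 0 of 10 annexins, with 2 annexins and 1717 of 17713 genes at an unadjusted p below 0.05, DESeq2 called 0, and 0.141% of all genes tested were called (0.096% higher, 0.0452% lower). Anxa3 was at 31.2, 24.3, 22.3 and 26.4 CPM in A mice, all above the WT mice by a little (log2 fold change 0.51, adjusted p = 0.416), and it was the 1 annexin whose groups did not overlap against 4.69% of all genes. Anxa8 was at 3.92, 4.33, 3.76 and 3.01 CPM in A mice, overlapping WT (log2 fold change 0.75, adjusted p = 0.480). Anxa2 ranged from 601 to 1270 CPM in A mice against 550 to 777 in WT mice. The WT mice of this comparison are those of the BA comparisons.

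Sulindac, an inhibitor of cyclooxygenases, made no annexin differ past the threshold in A mice. Against untreated A mice 0 of 10 annexins and 0% of all genes were called by edgeR's quasi-likelihood test, with 3 annexins and 460 genes at an unadjusted p below 0.05. Against WT mice 0 annexins were called, 6 annexins and 1607 of 17742 genes were at an unadjusted p below 0.05, and 0.0507% of all genes were called, none of them lower, while DESeq2 and a fit of all day 30 libraries each called 1, Anxa3. In 0 annexins did these groups not overlap, against 5.11% of all genes. Anxa3 was at 67.1, 49.0, 31.1 and 20.9 CPM in sulindac-treated A mice, from just below the untreated range to well above it. The other 8 annexins had log2 fold changes of −0.42 (Anxa6) to 0.77 (Anxa1) over untreated A mice. Replicate 1 was the highest of the sulindac mice in Anxa8, with 23.3 CPM against 5.47, 3.24 and 2.88, and the log2 fold change of Anxa8 over untreated A mice was 1.25 with it and 0.05 without it.

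Most annexins of antibiotic-treated BA colon still differed from WT. Against WT at day 30, antibiotic-treated BA mice had 7 annexins higher and 1 lower, with 7 that did not overlap, where 39.6% of all genes tested were called (21.8% higher, 17.8% lower) and 32.8% did not overlap. The log2 fold change over WT was 3.94 for Anxa1 (adjusted p = 3.35e-08), 3.74 for Anxa3 (adjusted p = 3.12e-08), 2.40 for Anxa2 (adjusted p = 7.92e-07) and 1.74 for Anxa5 (adjusted p = 3.22e-07). Anxa6 (log2 fold change −0.30, adjusted p = 0.347) and Anxa9 (0.28, adjusted p = 0.459) were the annexins not called here. Without antibiotic replicate 3, Anxa6 was called at −0.55 (adjusted p = 0.0173), and without WT replicate 3 Anxa4 missed the threshold. Epithelial markers were higher than in WT for 10 of 10, with summed levels of 23174 to 35134 CPM against 13548 to 16148. Of 6 small intestinal enterocyte markers tested, 3 were higher and 1 lower. Lower were 4 of 5 colon, 3 of 4 T cell and 2 of 3 B cell markers tested. The part of these in the annexin values was not tested.

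Against untreated BA mice the antibiotic mixture changed 4 of 10 annexins, Anxa8 and Anxa1 higher and Anxa5 and Anxa9 lower, where 13% of all genes tested were called, 4.53% higher and 8.50% lower. Anxa8 was at 179, 195, 116, 140.4 and 159 CPM in treated BA mice against 17.7, 21.4, 38.4, 22 and 49.5 in untreated ones, so that the lowest treated mouse was above every untreated mouse. The rise was 5.31-fold (log2 fold change 2.41 ± 0.27, adjusted p = 0.000484), resting on 2130 to 2859 reads per treated library. Set against WT mice, treated BA mice were 70.6-fold higher in Anxa8. This annexin went from 1.09% of the summed family level per kilobase in BA mice to 5.13% in treated BA mice, from 8th to 5th in the order of mean levels, where in treated mice its range overlapped those of the 4th and the 6th.

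Anxa5 went the other way, at 204, 234, 233, 203 and 205 CPM in treated against 263, 304, 287, 257 and 259 in untreated BA mice. The groups did not overlap, and the level was 1.26-fold lower at a log2 fold change −0.34 ± 0.08 (adjusted p = 0.0165), and it missed the threshold without BA replicate 2. Anxa9, on 25 to 77 reads per treated library, was at 1.61, 3.41, 4.18, 3.28 and 2.62 CPM against 6.54, 12.4, 5.38, 7.11 and 4.42 (log2 fold change −1.23, adjusted p = 0.0266). Treated mice were lower in Anxa9 without overlap and lay around the WT range of 2.03 to 3.14 CPM. Anxa1 was at 857, 824, 585, 825 and 832 CPM in treated mice and overlapped the untreated mice through replicate 3 (log2 fold change 0.41, adjusted p = 0.0347). This call was lost without the low-count filter (adjusted p = 0.052), with a replicate block (adjusted p = 0.0907) and with all day 30 groups in the fit (adjusted p = 0.269). The study reports the opposite direction for Anxa1, with lower expression under antibiotics by qRT-PCR of BA proximal colon and also in the epithelium. Why the directions differ was not tested. Of 10 fits that each left out 1 mouse, Anxa1 was called in 4, Anxa9 in 6, Anxa5 in 9 and Anxa8 in 10, with losses of Anxa1 without BA replicates 1 or 4 or antibiotic replicates 1, 2, 4 or 5 and of Anxa9 without BA replicates 2 or 4 or antibiotic replicates 4 or 5.

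In all, 4 annexins did not overlap between treated and untreated BA mice, against 10.7% of all genes, and the one of these that missed the threshold was Anxa13. It was at 5.80, 4.36, 3.31, 3.97 and 4.6 CPM in treated against 3.17, 2.77, 2.73, 1.05 and 3.21 CPM in untreated mice, between the untreated and the WT levels (log2 fold change 0.77, adjusted p = 0.0788). Anxa2, Anxa3, Anxa4, Anxa6 and Anxa11 overlapped, with log2 fold changes of 0.17, −0.07, −0.22, 0.47 and 0.11. Of the marker lists, 1 of 6 small intestinal enterocyte markers was higher in treated than in untreated BA mice (summed levels 2334 to 3634 against 1563 to 2220 CPM, without overlap) and 1 of 5 colon markers was lower, while in the other lists 0 were called. Their part in the annexin values was not tested. Without antibiotic replicate 3, whose fibroblast markers stood apart, the log2 fold change was 2.49 for Anxa8, 0.48 for Anxa1, −0.39 for Anxa5, −1.41 for Anxa9 and 0.22 for Anxa6. The untreated BA mice are shared with the comparisons above.

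**Figure D4:**
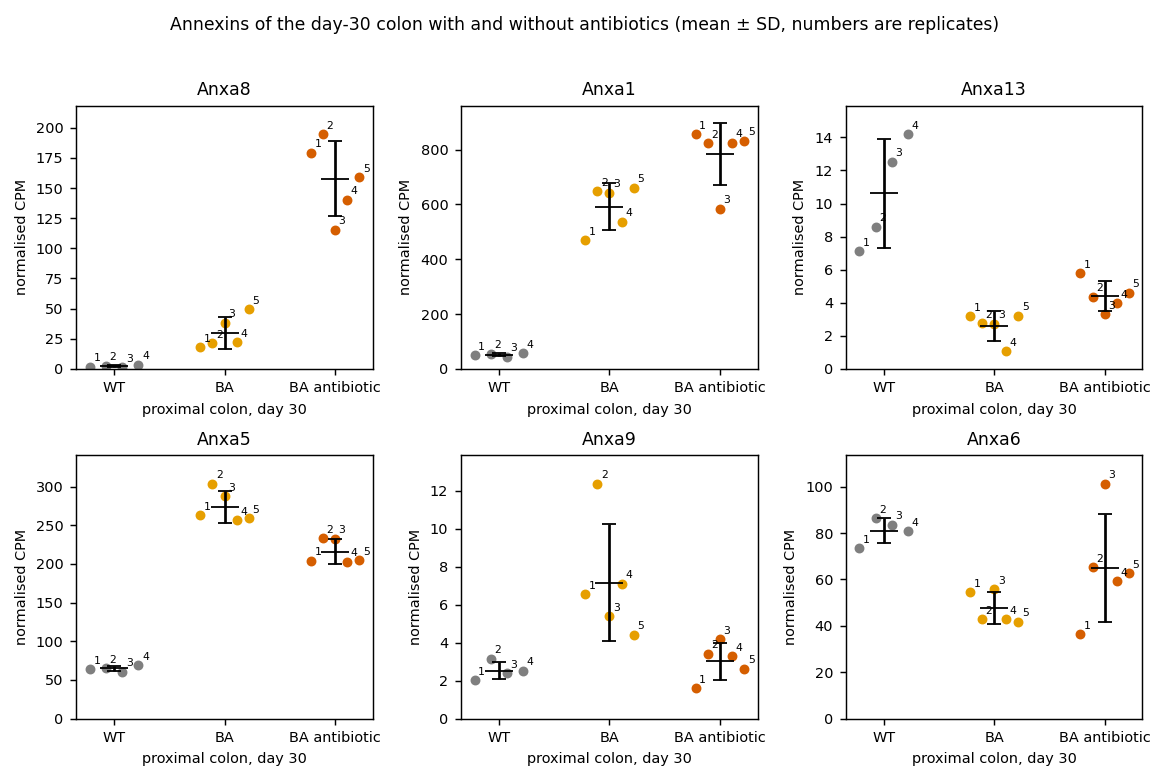
Levels (normalised CPM) of Anxa8, Anxa1, Anxa13, Anxa5, Anxa9 and Anxa6 in WT, BA and antibiotic-treated BA colon at day 30, with numbered points for mice and lines for the mean ± SD. Treated BA mice lie between 116 and 195 CPM in Anxa8, above all untreated BA mice, and between 203 and 234 CPM in Anxa5, below all of them.

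BA tumours had 4 annexins above and 1 below the WT colon, where 13.2% of all genes tested were called, 7.46% higher and 5.71% lower. Those that rose, Anxa1, Anxa3, Anxa5 and Anxa8, are all on the foetal list that was shown for these tumours, which is not independent evidence of their direction. Anxa6 is on that list as well and was not called in the tumours (log2 fold change −0.38). The 4 tumours were at 358, 678, 785 and 1053 CPM in Anxa1 against 92.7, 64.1 and 142 in WT tissue (log2 fold change 2.84 ± 0.47, adjusted p = 0.0067). Anxa8 was at 79.6, 79.9, 88.5 and 118 CPM in tumours and at 5.97, 7.52 and 8.38 CPM in WT tissue, with 3.63 ± 0.24 (adjusted p = 0.000252). Every tumour lay above every WT sample in both genes, and in 7 annexins the groups did not overlap, against 27.5% of all genes.

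Anxa13 was the annexin that fell in BA tumours, at 2.66, 7.32, 1.25 and 0.810 CPM against 21.2, 8.82 and 16.8 in WT tissue (log2 fold change −2.45 ± 0.69, adjusted p = 0.0458). Anxa2 was at 1223, 1879, 1852 and 1904 CPM against 588, 735 and 850, without overlap, but its log2 fold change of 1.23 ± 0.36 missed the threshold (adjusted p = 0.0543). Anxa9 did not overlap either, at 3.40 to 4.01 CPM against 2.32 to 3.23 CPM (log2 fold change 0.45, adjusted p = 0.367). Anxa4, Anxa6 and Anxa11 had log2 fold changes of 0.12, −0.38 and 0.24 and overlapped in each case, and none was called.

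Of fits that each left out 1 of the 7 BA tumour or WT samples, Anxa5 was called in 2 (without tumours 1 or 2) and Anxa13 in 1 (without tumour 2), while Anxa2 was called in 2 (without tumours 1 or 2). Neutrophil markers were higher in the tumours for 6 of 7 tested, with summed levels of 21.3 to 86.8 CPM against 3.07 to 5.94. Higher as well were 4 of 4 B cell, 2 of 4 endothelial, 2 of 6 fibroblast, 2 of 8 macrophage and 1 of 10 epithelial markers. Lower were 4 of 8 smooth muscle, 2 of 5 colon and 1 of 7 small intestinal enterocyte markers tested. Their part in the annexin values was not tested. Gm13394 was over 10 CPM in 3 of 4 tumours and in 0 of 3 WT samples, and with it as a term, chosen after seeing the data, 3 annexins were called (Anxa1, Anxa3 and Anxa8). The Y-linked gene Ddx3y was over 10 CPM in 3 of 4 tumours and in 0 of 3 WT samples, and with that state as a term in the fit Anxa8 alone was called, with log2 fold changes of 1.75 for Anxa1 (adjusted p = 0.111) and 1.79 for Anxa3 (adjusted p = 0.109).

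In the small intestine 4 days after homozygous Apc loss, 4 annexins were higher and 2 lower than in WT mice, where 54.2% of all genes tested were called (27.5% higher, 26.7% lower). The share of annexins called was near that of all genes. Anxa13 was the annexin without overlap, against 16.9% of all genes, at a lowest, median and highest level of 36, 70.5 and 140.4 CPM in Apc fl/fl mice and 228, 308 and 388 CPM in WT mice. Its log2 fold change was −1.97 ± 0.25 (adjusted p = 6.93e-06). Anxa6 was at 15.9, 45.9 and 66.7 CPM (lowest, median and highest) against 54.4, 71.5 and 88.2 CPM (log2 fold change −0.63 ± 0.17, adjusted p = 0.00463). Of the cell type markers tested, 8 of 8 enterocyte, 4 of 4 endothelial, 4 of 4 T cell and 2 of 3 colon markers were lower. So were 3 of 10 epithelial, 2 of 8 macrophage, 1 of 5 neutrophil and 1 of 8 smooth muscle markers, and 1 epithelial marker was higher. The part of these in the annexin values was not tested.

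Anxa3 rose at day 4, from 13.3, 14.8 and 16.3 CPM (lowest, median and highest) in WT to 14.3, 30.8 and 110 CPM in Apc fl/fl mice (log2 fold change 1.5 ± 0.32, adjusted p = 0.000914). Anxa8 was at 0, 3.03 and 50 CPM in Apc fl/fl mice and 0.215, 0.943 and 2.82 CPM in WT mice, with 3.15 ± 0.86 (adjusted p = 0.00507). Anxa1 had medians of 20.3 CPM in Apc fl/fl mice and 19.3 CPM in WT mice, and its log2 fold change of 1.20 (adjusted p = 0.0498) came with a highest value of 170 CPM in replicate 5. That mouse was the highest in Anxa1, Anxa2, Anxa3, Anxa5 and Anxa8, and in fibroblast, macrophage and neutrophil markers. Without it the log2 fold change of Anxa1 was 0.60 (adjusted p = 0.111), of Anxa9 0.69 (adjusted p = 0.0662), of Anxa3 1.20 (adjusted p = 0.000244) and of Anxa8 2.27 (adjusted p = 0.00669). Of 16 fits that each left out 1 mouse, Anxa1 was called in 6 and Anxa9 in 7. Anxa2, Anxa4, Anxa5 and Anxa11 were not called, with log2 fold changes of 0.19, −0.03, 0.15 and −0.02.

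In Apc fl/+ tumours 7 annexins were higher and 1 lower than in WT small intestine, where 61.5% of all genes tested were called (31.4% higher, 30.09% lower), and 8 did not overlap against 59.2% of all genes. The median log2 fold change was 1.24 over the annexins and 0.03 over all genes. Anxa1 was at 196, 266, 159, 208 and 150 CPM in the tumours against 15.5, 13.5 and 13.5 CPM in WT tissue (log2 fold change 3.89 ± 0.22, adjusted p = 1.04e-05). Anxa8 was at 46.4, 175, 49.7, 57.2 and 41.5 CPM against 3.40, 0.780 and 1.78 CPM, with 5.31 ± 0.73 (adjusted p = 0.000406), and the highest tumour was number 2. Anxa3 was at 55.3, 113, 58.6, 75.8 and 63.3 CPM against 11, 11 and 10.7 CPM, with 2.85 ± 0.25 (adjusted p = 5.53e-05).

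Anxa6 rose in the Apc fl/+ tumours, at 127, 175, 127, 135 and 142 CPM against 72.6, 64.1 and 57.8 CPM (log2 fold change 1.22 ± 0.13, adjusted p = 0.000123). Anxa5 was higher by 1.96 (adjusted p = 0.000249), Anxa2 by 1.25 (adjusted p = 0.0108, overlapping WT through tumour 2) and Anxa9 by 0.70 (adjusted p = 0.0236) on the log2 scale. Anxa4 was the 1 annexin that fell, at 585, 366, 588, 564 and 544 CPM against 797, 780 and 801 CPM (log2 fold change −0.48, adjusted p = 0.042). Anxa11 was at 41.6, 41.5, 43.7, 44.3 and 42.3 CPM against 44.4, 54.5 and 58.3 CPM, each tumour below each WT sample, and was not called (log2 fold change −0.20, adjusted p = 0.124).

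Anxa13 separated tumour 2 from the other Apc fl/+ tumours, at 5.29 CPM against 350.2, 497, 307 and 201 CPM, with WT tissue at 231, 190 and 256 CPM. Its log2 fold change was 0.38 (adjusted p = 0.738) with all 5 tumours and 0.70 (adjusted p = 0.0441) without tumour 2. Without that tumour 9 annexins were called, with log2 fold changes of 3.76 for Anxa1, 4.71 for Anxa8, 2.64 for Anxa3, 2.1 for Anxa5, 1.44 for Anxa2, 1.14 for Anxa6, 0.79 for Anxa9 and −0.37 for Anxa4. The share of all genes called was 61.5% with all 5 tumours and is not given here for the fit without tumour 2. Of 8 fits that each left out 1 sample, Anxa4 was called in 3 (without tumours 1, 2 or 3) and Anxa9 in 5 (without any 1 tumour). Neutrophil markers were higher in these tumours for 6 of 7 tested, with summed levels of 68.1 to 484 CPM against 6.44 to 10.5, and fibroblast markers for 5 of 6, and for 6 of 7 and 6 of 6 without tumour 2. Endothelial markers were higher for 3 of 4, and of 10 epithelial markers 5 were higher and 1 lower. Lower were 4 of 4 T cell, 4 of 8 smooth muscle, 4 of 8 enterocyte, 2 of 4 B cell and 1 of 8 macrophage markers. Of 4 colon markers tested, 2 were lower and 1 higher. Without tumour 2, 6 of 8 smooth muscle and 6 of 8 enterocyte markers were lower, and 1 enterocyte marker was higher. The part of these in the annexin values was not tested. Gm13394 was over 10 CPM in 0 of 5 tumours and 3 of 3 WT samples and cannot be told apart from the comparison. Ddx3y was over 10 CPM in 1 of 5 tumours and 3 of 3 WT samples, so its state nearly coincided with the comparison. With the Ddx3y state as a term 6 annexins were called, all higher.

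The effect in tumours was tested against the effect soon after recombination in one fit. From day 30 to tumours, the effect of the BA genotype was smaller for Anxa3 (difference of log2 fold changes −1.57 ± 0.33, adjusted p = 0.00464), Anxa5 (−1.04 ± 0.24, adjusted p = 0.00823), Anxa2 (−1.00 ± 0.27, adjusted p = 0.0169) and Anxa11 (−0.82 ± 0.18, adjusted p = 0.00583), where 16.3% of all genes tested were called (9.87% higher, 6.46% lower). The difference for Anxa8 was −0.09 ± 0.44 (adjusted p = 0.921), and for Anxa1 it was −0.70 (adjusted p = 0.237). From day 4 of Apc fl/fl to Apc fl/+ tumours, where 24.7% of all genes were called (12.4% higher, 12.3% lower), the log2 fold change was higher for Anxa1 (difference 2.64 ± 0.76, adjusted p = 0.0141), Anxa13 (2.33 ± 0.79, adjusted p = 0.0329), Anxa6 (1.80 ± 0.28, adjusted p = 9.91e-05), Anxa5 (1.76 ± 0.32, adjusted p = 0.000451) and Anxa2 (1.03, adjusted p = 0.0195). For Anxa13 it went from −1.97 at day 4 to 0.38 in tumours, where it was not called. For Anxa6 it changed sign, from −0.63 to 1.22. Without Apc fl/fl replicate 5, Anxa3 (1.61, adjusted p = 0.00253) and Anxa8 (2.94, adjusted p = 0.0326) were called as well. Without Apc fl/+ tumour 2 the differences were 2.51 for Anxa1, 2.65 for Anxa13, 1.71 for Anxa6, 1.90 for Anxa5 and 1.22 for Anxa2, all called. The call of Anxa2 in the BA contrast was lost without WT tissue 3 or WT replicates 1, 3 or 4 of day 30, and in the Apc contrast that of Anxa13 was lost without any 1 WT small intestine or without tumours 1 or 3, and that of Anxa2 without WT small intestine 2 or 3. Time point, tumour against whole tissue, the control mice and, for Apc, the number of alleles lost and the strain background differ together within each pair and cannot be told apart.

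**Figure D5:**
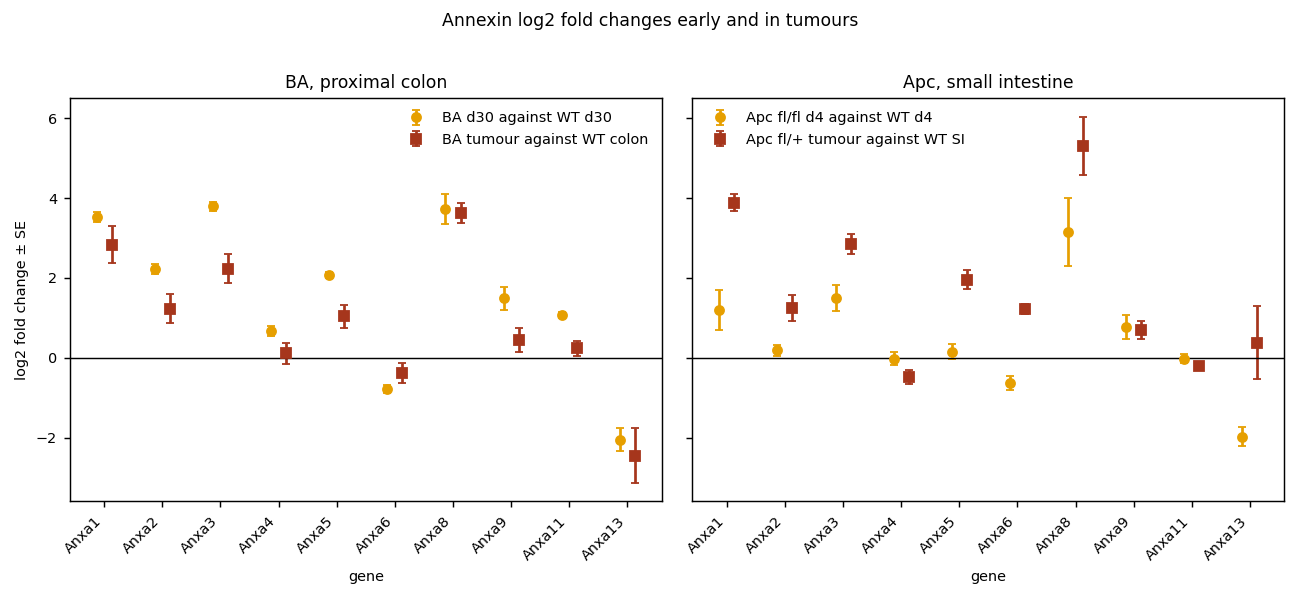
Log2 fold change ± SE of each annexin against its own WT, for BA colon at day 30 beside BA tumours and for Apc fl/fl small intestine at day 4 beside Apc fl/+ tumours. Anxa2, Anxa3, Anxa5 and Anxa11 have smaller effects in BA tumours than at day 30. Anxa1, Anxa2, Anxa5, Anxa6 and Anxa13 have higher log2 fold changes in Apc fl/+ tumours than at day 4, where those of Anxa6 and Anxa13 are negative.

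Between the tumour types the effects differed for 1 annexin, Anxa6, by −1.58 ± 0.28 (adjusted p = 0.00113, BA tumour effect minus Apc fl/+ tumour effect), where 39.7% of all genes tested were called (21.9% higher, 17.7% lower). The difference was −1.65 for Anxa8 (adjusted p = 0.0701), −2.85 for Anxa13 (adjusted p = 0.0878) and 0.01 for Anxa2. Without Apc fl/+ tumour 2, Anxa5 (−1.14, adjusted p = 0.011), Anxa8 (−1.15, adjusted p = 0.0496) and Anxa13 (−3.30, adjusted p = 0.00446) were called beside Anxa6 (−1.59, adjusted p = 0.001). Anxa1, Anxa3, Anxa5, Anxa8, Anxa11 and Anxa13 were each called in 1 to 3 of the fits that left out 1 library, among them those without WT colon 2, WT small intestine 1 or BA tumours 2 or 4. Tissue, background and oncogene differ together here and cannot be told apart.

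Among 16 genes whose products bind annexins or act beside them, the S100 partners rose with BA genotype. At day 30, 8 of 14 tested were higher in BA than in WT colon and 0 were lower, beside 25.8% of all genes higher and 29.3% lower, among them S100a11, the partner of Anxa1, by a log2 fold change of 3.06, S100a6 by 2.74, Myof, a ferlin of membrane repair, by 2.13, and S100a10 by 1.54. S100a10, the partner of Anxa2 in a complex at the membrane, was at 733 to 960 CPM in BA and 255 to 350.1 CPM in WT mice. Plaur, the urokinase receptor, was higher by 2.63. Under antibiotics, where 4.53% of all genes were higher and 8.5% lower, 1 of 14 was higher than in untreated BA mice, S100a10 by 0.41, and 2 were lower, Fpr1, a receptor of Anxa1 at 0.136 to 0.651 CPM, and Myof.

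In the tumours, Plat, the tissue plasminogen activator that Anxa2 binds, was the partner with the largest rise. It was at 51.8 to 253 CPM in BA tumours against 7.62 to 12.8 CPM in WT colon, with a log2 fold change of 3.61, and 4 of 15 partners tested were higher there and 0 lower, beside 7.46% and 5.71% of all genes. In Apc fl/+ tumours Plat was at 495 to 691 CPM against 10.1 to 12.3 CPM, with a log2 fold change of 5.78, and 10 of 15 partners were higher and 1, the ferlin Dysf, was lower, beside 31.4% and 30.09% of all genes. Without tumour 2, Plat kept that range with a log2 fold change of 5.82, and 11 of 15 partners were higher and 2 lower. The share of all genes called in that fit is not given here. At day 4 of Apc fl/fl, 5 of 14 were higher and 0 lower, a share higher that was near the 27.5% of all genes, with S100a6 at 2.18 and S100a11 at 1.80. Against WT and against A colon alike, BA mice had 8 of 14 partners tested higher and 0 lower. Over all genes 25.8% were higher and 29.3% lower against WT, and 21.7% and 23.6% against A. A mice had 0 of 14 partners called against WT, where 0.141% of all genes were called.

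Over the 53 libraries the annexins differed in which genes they resembled, given here as a description over libraries that share tissue, genotype and depth. Log2 levels of Anxa1 were most like those of Anxa5 among members (Pearson's r = 0.95), then Anxa3 (0.94) and Anxa8 (0.91), and were opposed to Anxa13 (−0.72). Of 13817 genes other than these 10, the nearest to Anxa1 was Trim29 (0.967), to Anxa3 Il1rn (0.967) and to Anxa8 Fer1l4 (0.906). Anxa13 was nearest to Pipox (0.930), Anxa6 to Armcx2 (0.911), Anxa4 to Acsl5 (0.876) and Anxa11 to Trp53inp2 (0.949).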

How the data were processed

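Total RNA from whole tissue was sequenced in paired reads of 36 bases. Per the labels and the study's methods, the authors used FastQC (0.11.8), Trim Galore (0.6.4), HISAT2 (2.1.0) with GRCm38 and featureCounts (1.6.4), and deposited raw counts of reads per gene; strand and multimapping settings are not given in the sources used here. Of 55421 genes, 55154 had a symbol in the table and 267 had none. Each comparison was fitted over all genes with edgeR 4.0.16 in R 4.3.3 (filterByExpr, TMM, quasi-likelihood F test, two-sided, Benjamini-Hochberg adjusted p below 0.05). The SE is the absolute log2 fold change over the square root of F. Levels are TMM-normalised CPM over all 53 libraries. Differences of effects are interaction terms. DESeq2 1.42.0, other scaling, no filter, the replicate number as a block and each library left out were alternatives. Depth ran from 516985 to 32824795 reads, and a count of 0 allows up to 3 reads, for counting error only. No 2 libraries had identical counts (0 pairs), and 0 columns belonged to other samples.

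Any of the 10 annexins may be named in any comparison, partner genes singly where called, and cell type markers by counts. Members and lists were chosen with earlier results of these data known. The labels number samples without saying that they are separate animals, so p-values measure the spread between libraries. The fits were tested on simulated data. Likeness is Pearson's r over log2 CPM (prior count 2).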

Additional observations from a re-analysis of the deposited data

Results flagged for a closer look

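Single libraries stood apart from the rest of their group by Dixon's test in 13 of 90 pairs of an annexin and a group of 4 to 10 libraries. About 1 in 20 is the rate for independent pairs with normally distributed levels. The pairs here share libraries and the levels were not put on a log scale, so that rate is no yardstick for the count. Apc fl/fl replicate 5 was the highest of its group in 5 annexins, with Anxa1 at 170 CPM (others 4.78 to 60.5), Anxa2 at 1340 (682 to 1008), Anxa3 at 110 (14.3 to 55.6), Anxa5 at 109 (38.2 to 57.4) and Anxa8 at 50 (0 to 14.6). Antibiotic-treated BA replicate 3 was the lowest in Anxa1 at 585 CPM (824 to 857) and in Anxa11 at 215 (287 to 317). Apc fl/+ tumour 2 was the lowest in Anxa4 at 366 CPM (544 to 588) and the highest in Anxa8 at 175 (41.5 to 57.2). The remaining ones were Anxa2 at 1223 CPM in BA tumour 1 (1852 to 1904), Anxa8 at 23.3 in sulindac-treated A replicate 1 (2.88 to 5.47), Anxa13 at 1.05 in BA replicate 4 at day 30 (2.73 to 3.21) and Anxa13 at 15.1 in A replicate 1 (6.95 to 7.94).

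Effects differed between experiments by an interaction term in edgeR's quasi-likelihood test for 10 pairs of an annexin and a contrast. Between BA and Apc fl/+ tumours the effect differed for Anxa6 (−1.58 on the log2 scale). Between BA tumours and BA colon at day 30 it differed for Anxa2 (−1.00), Anxa3 (−1.57), Anxa5 (−1.04) and Anxa11 (−0.82). Between Apc fl/+ tumours and Apc fl/fl at day 4 it differed for Anxa1 (2.64), Anxa2 (1.03), Anxa5 (1.76), Anxa6 (1.80) and Anxa13 (2.33).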

How the results depend on the processing

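Each count of called annexins was recomputed under other settings. In BA tumours the count of 5 was 3 with a replicate block, 1 with the Ddx3y state as a term and 3 with the Gm13394 state as a term (added after seeing the data), and 3 to 6 when 1 sample was left out. In Apc fl/+ tumours the count of 8 was 5 with a replicate block and 6 to 9 when 1 sample was left out. Sulindac-treated A against WT went from 0 to 1 with DESeq2 and with all day 30 libraries in the fit. The difference between tumour types went from 1 to 3 with DESeq2, 4 without the filter, and 1 to 4 when 1 sample was left out. Leaving out 1 sample gave 2 to 4 for antibiotics (2 without BA 2 or 4 or antibiotic 4 or 5), 3 to 7 for Apc fl/+ tumours against day 4 (3 without WT small intestine 2 or 3), 4 to 6 for Apc fl/fl at day 4, 7 to 9 for treated BA against WT, 3 to 4 for BA tumours against day 30, 10 for BA against WT and against A, and 0 for A and both sulindac comparisons. The causes were not tested.

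The labels do not say whether equal replicate numbers mark matched samples. Correlations of same-numbered deviations ran from −0.48 to 0.29, and no comparison had every pair over 0.1. With so few pairs these values cannot settle whether samples were matched. With the block the other counts were 4 for Apc fl/fl at day 4, 10 for BA against WT and against A, 8 for treated BA against WT, 3 for antibiotics (Anxa1 lost, as without the filter and with all day 30 groups in the fit), and 0 for A and both sulindac comparisons. Both Gm13394 states occurred in both groups in the Apc fl/fl comparison alone, which then called 5, with Anxa1 at 0.83 (adjusted p = 0.162).

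Reversed values were all of annexins not called. They were Anxa4 in BA tumours (block −0.002, Ddx3y term −0.271, Gm13394 term −0.096), Anxa13 in Apc fl/+ tumours (block −0.529), Anxa4 (block 0.019, and 0.073 without replicates 1 and 8, added after seeing the data) and Anxa11 (0.088 without both) in Apc fl/fl, Anxa4 in A (block −0.001), and Anxa2 between tumour types (−0.004 with DESeq2's scaling in edgeR, −0.004 with DESeq2, −0.169 without the filter). With 1 sample left out, signs changed within these ranges. For sulindac against none they were −0.059 to 0.090 (Anxa11), −0.052 to 0.433 (Anxa13) and −0.123 to 0.354 (Anxa2), and against WT −0.027 to 0.073 (Anxa11) and −0.225 to 0.141 (Anxa13). For A against WT they were −0.061 to 0.087 (Anxa11), −0.091 to 0.136 (Anxa4) and −0.028 to 0.088 (Anxa6). For Apc fl/fl they were −0.055 to 0.030 (Anxa11), −0.110 to 0.087 (Anxa4) and −0.015 to 0.233 (Anxa5). For the differences of effects they were −0.277 to 0.116 (Anxa2, tumour types), −0.289 to 0.211 (Anxa8, BA tumours against day 30) and −0.312 to 0.048 (Anxa9, Apc fl/+ tumours against day 4). A floor of 3 reads was 5.80 CPM in Apc fl/fl replicate 1, above every level of Anxa8 and Anxa9 in WT small intestine.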
